A study of Mus musculus with 11 samples.

Results

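The genes described here are 7 transcripts that are widely used to recognise microglia, the resident macrophages of the brain: Tmem119, Olfml3, Golm1, Slc2a5, Fcrls, Ltc4s and Crybb1. They were chosen by name and found through the RefSeq accession that each array probe carries. All 7 passed the filter on dim probes, among 19565 genes tested. They were followed across 4 groups of C57BL/6N mouse microglia on 11 single-colour Agilent arrays. A_FACS (2 arrays) were microglia of adult females, 12 to 24 weeks old, and NB_FACS (3 arrays) were microglia of newborns of both sexes at postnatal day 1 to 3. Both were sorted by flow cytometry for intermediate CD45 and high CX3CR1 after a density step that removes myelin, and were lysed at once. NB_Control (3 arrays) and NB_Stim (3 arrays) came from newborn brains that were pooled in flasks, grown for weeks with 20% medium conditioned by L-929 cells, a fibroblast line that secretes the growth factor M-CSF, shaken off and kept for 1 day in medium with 10% serum. NB_Stim also received 3 human cytokines for that day, TGF-β1, IL-34 and CX3CL1, each at 100 ng/mL. All groups were wild type. Digestion was carried out in serum and without a transcription inhibitor, so the sorted cells are not an undisturbed state of the brain. The cultured groups differed from NB_FACS in time outside the brain, isolation and medium together, and these cannot be told apart. A_FACS differed from NB_FACS in age, sex, perfusion and brain dissociation together, and these cannot be told apart either.

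Microglia keep their expression programme through signals from the surrounding brain, among which TGF-β is the best known. Outside the brain the programme fades, and transcripts that separate microglia from other macrophages are among those that are lost. The 7 genes encode unlike proteins. Tmem119 is a membrane protein with 1 transmembrane span and a widely used marker of microglia in mouse and human tissue, Olfml3 is a secreted glycoprotein with an olfactomedin domain, and Golm1 is a membrane protein of the Golgi apparatus. Slc2a5 is the fructose transporter GLUT5, Fcrls is a surface molecule related to Fc receptors, Ltc4s is the enzyme that joins glutathione to a leukotriene precursor, and Crybb1 is a β-crystallin first known from the eye lens.

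Every value rests on short probes, and 6 of the 7 genes had 1 probe, printed once on the array. Their sequences are given because they define what was measured. Those of Olfml3 and Ltc4s are whole, and for the others the first 30 bases are shown, all written 5′ to 3′ as the scanner files list them.
Tmem119 (XM_006530287.1): ccccgagtcctcagctcttcggatgtggat
Olfml3 (NM_133859.2): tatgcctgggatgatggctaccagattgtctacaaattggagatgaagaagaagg
Golm1 (NM_027307.4): tgtgatgtggttttccttcaactgcatgac
Slc2a5 (NM_019741.3): tctggcatctacttgggattgatgttgtct
Fcrls (XM_006502369.1): aattgttcccctgtccaggttccctgcctt
Ltc4s (NM_008521.1): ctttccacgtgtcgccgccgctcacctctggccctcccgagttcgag
These 6 probes were 46 to 55 bases long. The Ltc4s probe was the richest in G and C (68.1%) and the Golm1 probe the poorest (39.2%). No other probe of the array had the same sequence as any of them.

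Crybb1 was different, with 6 probes for 6 predicted transcript models, and these disagreed. The last 30 bases of 5 of them are shown, because 1 probe carried nearly all of the signal. In the first line capitals mark AATAAA, the usual signal for cleavage and polyadenylation, and in the last pair of lines they mark 24 bases that both probes share.
XM_006534752.1: gtcccatcttcccctactAATAAAgttctt
XM_006534753.1: tccacttggggttcacactgtggaacaagc
XM_006534754.1: gagcacaggaagggaggaacagggtgtgag
XM_006534756.1: ttctgtCACCAGGAACCATGTCCCAGGCTG
XM_006534757.1: gaaatgCACCAGGAACCATGTCCCAGGCTG
The probe ending in AATAAAgttctt was well above background on 11 of 11 arrays and bright. The probe of XM_006534753.1 was above background on 11 of 11 arrays but dim, and that of XM_006534754.1 on 8 of 11. The probes of XM_006534755.1 and XM_006534756.1 were above background on 0 arrays and that of XM_006534757.1 on 1, and these 3 were not kept.

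Values below are quantile-normalised log2 intensities, called log2 levels, and a difference is the first group's mean minus the second's. They compare groups within a gene, since the level of one probe cannot be set against that of another. An adjusted p is from limma over all 19565 genes, and a gene was called where it was under 0.05. Slide 1 held 8 arrays and slide 2 held replicate 3 of each newborn group. Between 66.8% and 80.5% of probes were well above background on an array, and no spot was saturated. Of 7 general microglia and macrophage markers with a probe, none of them a member, all 7 were above background on every array of every group, and their log2 summed signal was 16.48 to 16.59 in NB_FACS, 14.76 to 14.99 in NB_Control, 16.32 to 16.35 in NB_Stim and 17.06 to 17.15 in A_FACS. In bulk RNA, fewer microglia in a sample and less transcript per microglial cell cannot be told apart.

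The first question was what culture does to these transcripts. Each of the 7 was called lower in NB_Control, the cultured cells without cytokines, than in NB_FACS, and for none of them did the 3 arrays of one group overlap those of the other. The differences ran from −7.48 for Slc2a5 to −1.32 for Ltc4s, with a median of −3.01 against 0.09 over all genes. Slc2a5 passed the filter on dim probes only through the sorted groups, so its call is not independent of that filter. Of all genes tested, 13.9% were called lower and 29.7% were called in either direction, and 20.2% lay lower without overlap (44.2% without overlap in either direction).

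The second question was what the 3 cytokines restore. Olfml3, Tmem119 and Golm1 were called higher in NB_Stim than in NB_Control, by 3.24, 2.90 and 2.25 on the log2 scale, while 1.4% of all genes were called higher and 3.4% were called at all. Olfml3 had the 6th largest rise of the 19565 genes and Tmem119 the 13th. Fcrls, Ltc4s, Slc2a5 and Crybb1 were not called, with differences of 1.15, 0.45, 0.14 and −0.03. Counting Fcrls, 4 of the 7 lay higher without overlap of the arrays, as did 10.1% of all genes (24% without overlap in either direction). Against NB_FACS, 5 of the 7 were still called lower in NB_Stim, beside 15.1% of all genes called lower and 31.1% called. Those 5 also lay lower without overlap, as did 20% of all genes (43.5% without overlap). Slc2a5 is 1 of the 5, and its call is not independent of the filter on dim probes. The members not called lower were Olfml3 and Fcrls, whose differences of 0.09 and −0.27 were within the spread of the arrays.

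The third question was how sorted adult cells differed from sorted newborn cells. Slc2a5, Tmem119, Olfml3 and Golm1 were called higher in A_FACS than in NB_FACS, by 2.31, 2.18, 1.43 and 0.96, beside 9.75% of all genes called higher and 22.7% called. Fcrls, Ltc4s and Crybb1 differed by −0.08, −0.13 and −0.41 and were not called. Without overlap of the arrays, 4 lay higher and 1, Ltc4s, lower, beside 24.4% and 26.8% of all genes (51.2% in all). Adult cells also stood above the cultures, with 6 of the 7 called higher than NB_Control (17.7% of all genes called higher, 40.8% called) and 5 called higher than NB_Stim (17.5% called higher, 40.2% called). All 7 lay above NB_Control without overlap and 6 above NB_Stim, beside 28.5% and 27% of all genes (66.4% and 63% in either direction). The counts against the cultures include Slc2a5, whose calls there are not independent of the filter on dim probes.

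**Figure D1:**
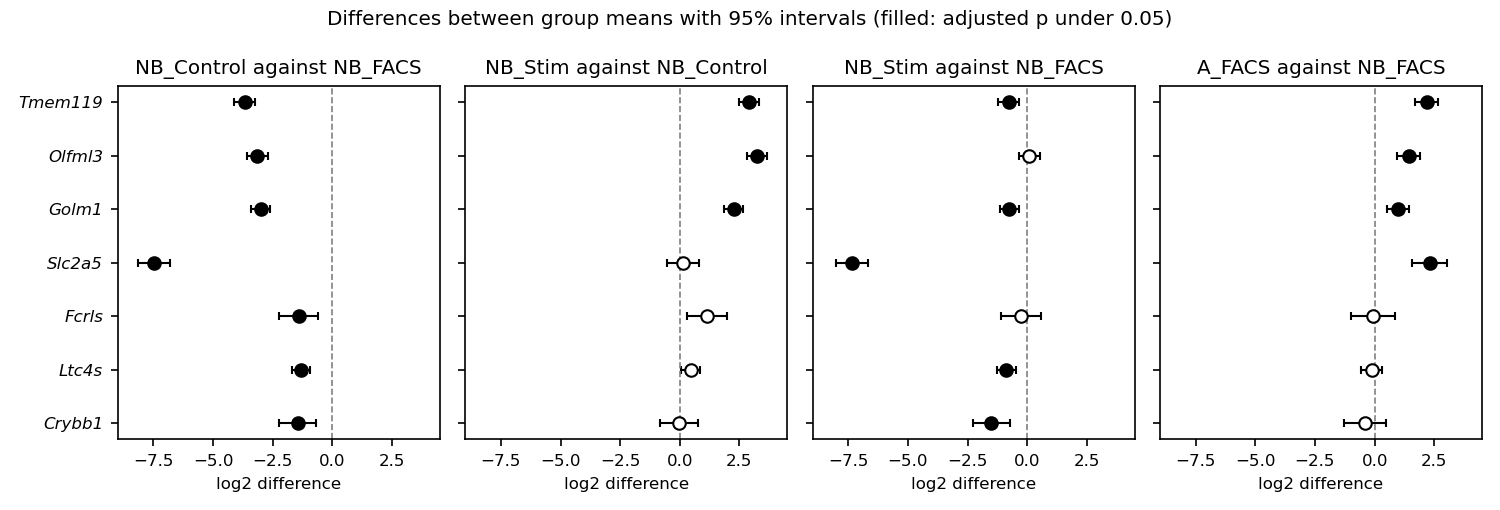
Differences between group means on the log2 scale (x axis) for each of the 7 genes (y axis) in 4 comparisons; bars are 95% intervals and filled points mark an adjusted p under 0.05. All 7 points lie left of 0 for NB_Control against NB_FACS, and 3 are filled to the right of 0 for NB_Stim against NB_Control.

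Tmem119 separated all 4 groups. Its log2 level was 16.28 and 16.15 in A_FACS, 14.11, 14.07 and 13.93 in NB_FACS, 10.54, 10.59 and 9.95 in NB_Control, and 13.11, 13.14 and 13.53 in NB_Stim. The groups followed each other in the order A_FACS, NB_FACS, NB_Stim, NB_Control without overlap. The mean fell from 14.04 ± 0.095 (SD, n = 3) in NB_FACS to 10.36 ± 0.36 (n = 3) in NB_Control, a difference of −3.68 (SE 0.19, adjusted p = 1.72e-06), which is 12.8-fold on the linear scale. With cytokines the mean was 13.26 ± 0.23 (n = 3), which was 2.90 above NB_Control (SE 0.19, adjusted p = 9.68e-05) and differed from NB_FACS by −0.78 (SE 0.19, adjusted p = 0.0121). That remaining gap was no longer called without NB_Stim replicate 1, where it was −0.70 with an adjusted p of 0.0503. It was also not called in the Tukey test named in the methods (adjusted p = 0.0880). Here and below, Tukey p-values were also adjusted over all genes, a step that the methods do not state. Adult cells were at 16.22 ± 0.095 (n = 2), 4.52-fold above newborn cells (difference 2.18, SE 0.22, adjusted p = 0.000148).

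Olfml3 rose with cytokines to the range of NB_FACS. Its log2 level was 13.64 and 13.65 in A_FACS, 12.12, 12.19 and 12.31 in NB_FACS, 8.84, 9.55 and 8.79 in NB_Control, and 12.29, 12.26 and 12.36 in NB_Stim. The NB_Stim arrays lay inside or just above the range of NB_FACS, and every NB_Control array lay far below both. Culture without cytokines lowered the mean from 12.21 ± 0.098 to 9.06 ± 0.42 (n = 3 each), a difference of −3.15 (SE 0.19, adjusted p = 3.39e-06). The mean of NB_Stim was 12.30 ± 0.053 (n = 3), 9.47-fold above NB_Control (difference 3.24, SE 0.19, adjusted p = 5.38e-05). NB_Stim and NB_FACS differed by 0.09 (95% interval −0.34 to 0.52, adjusted p = 0.754). A_FACS was higher than either, by 1.43 over NB_FACS (SE 0.21, adjusted p = 0.00137) and by 1.34 over NB_Stim (adjusted p = 0.000924).

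Golm1 kept the same order of groups as Tmem119. The log2 level of Golm1 was 14.71 and 14.47 in A_FACS, 13.58, 13.61 and 13.70 in NB_FACS, 10.76, 10.80 and 10.30 in NB_Control, and 13.04, 13.01 and 12.57 in NB_Stim. No groups overlapped. The fall in culture was −3.01 (SE 0.18, adjusted p = 3.14e-06), 8.04-fold. With cytokines Golm1 was 2.25 above NB_Control (SE 0.18, adjusted p = 0.000209), and a difference of −0.75 from NB_FACS remained (SE 0.18, adjusted p = 0.0101, but 0.0699 in the Tukey test of the methods). The difference of 0.96 between A_FACS and NB_FACS (SE 0.20, adjusted p = 0.00791) was the smallest of the 4 called in that comparison. Without A_FACS replicate 1 it was 0.85 with an adjusted p of 0.0699. It was also not called in the Tukey test (adjusted p = 0.0624).

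**Figure D2:**
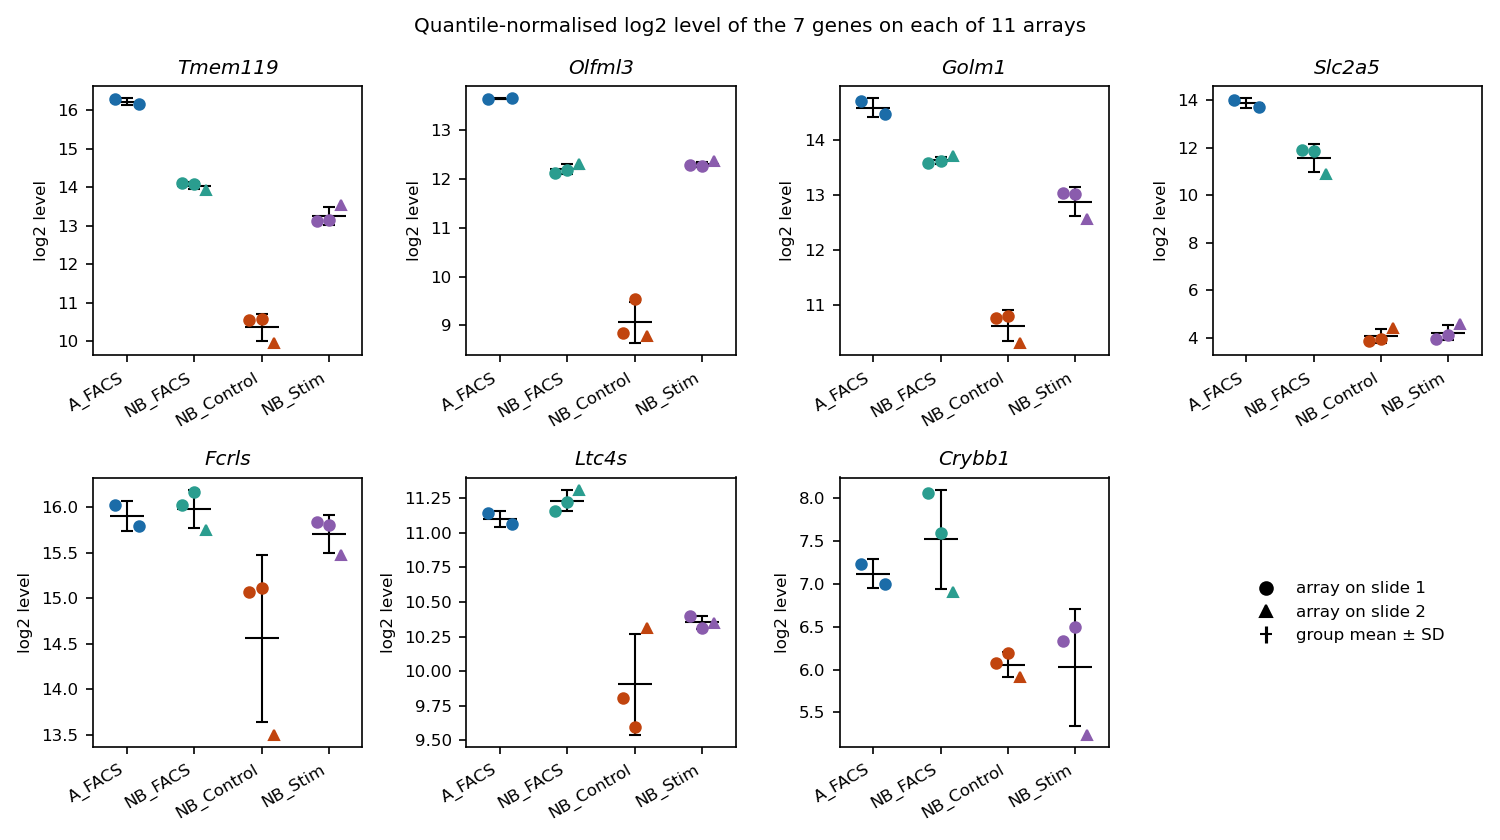
Log2 level (y axis, a separate scale for each gene) of the 7 genes on every array, by group (x axis); circles are arrays of slide 1, triangles arrays of slide 2, and bars the group mean ± SD. Tmem119, Olfml3 and Golm1 rise from NB_Control to NB_Stim, whereas Slc2a5 sits between 3.86 and 4.60 in both cultures.

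Slc2a5 had the largest fall of the 7 and no measured return. The arrays gave log2 levels of 14.03 and 13.73 in A_FACS, 11.92, 11.89 and 10.91 in NB_FACS, 3.86, 3.97 and 4.44 in NB_Control, and 3.95, 4.14 and 4.60 in NB_Stim. Both cultures lay at the edge of detection, with the probe well above background on 2 of 3 NB_Control arrays and 1 of 3 NB_Stim arrays. The probe thus passed the filter on dim probes only through the sorted groups, where it is high. That filter favours a fall in culture, so the tests of the cultures against sorted cells are not independent of it. The difference of NB_Control from NB_FACS was −7.48 (SE 0.30, adjusted p = 3.49e-07), and its size rests on levels at the edge of detection in culture. NB_Stim differed from NB_Control by 0.14 (95% interval −0.52 to 0.80, adjusted p = 0.918) and from NB_FACS by −7.34 (SE 0.30, adjusted p = 3.93e-07). Slc2a5 was 2.31 higher in adult than in newborn cells (SE 0.33, adjusted p = 0.00108). Against NB_Control and against NB_Stim, A_FACS was higher by 9.79 and 9.65, differences with the same limit.

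Markers of endothelial cells, another cell type of the brain, were read beside Slc2a5. Of 8 endothelial and pericyte markers with a probe, 8 were above background on all sorted arrays, 7 on all NB_Control arrays and 6 on all NB_Stim arrays. Their log2 summed signal was 13.39 to 14.41 in A_FACS, 12.42 to 12.90 in NB_FACS, 10.36 to 10.61 in NB_Control and 12.10 to 12.48 in NB_Stim. The members of this list did not move alike. In NB_Control against NB_FACS, Cldn5, a tight junction protein of brain endothelium, fell by 7.22 (adjusted p = 1.59e-06) and the pericyte marker Rgs5 by 6.24 (adjusted p = 0.000120). The mean of Rgs5 in NB_Control was 2.32, under the lowest level well above background on each of those arrays (2.98 to 3.59). The size of its fall thus rests on background. Ly6c1, Pecam1 and Flt1 differed by −2.46, −2.08 and −1.37 (adjusted p = 3.19e-05, 0.0163 and 0.00517). Cdh5, Pdgfrb and Kdr differed by −0.54, −0.16 and −0.04 and were not called (adjusted p = 0.316, 0.901 and 0.921). With cytokines 1 of the 8 was called, Flt1, a receptor for vascular growth factors, which rose by 2.78 (adjusted p = 0.000810). Cldn5 was at 4.77 in NB_Control and 4.12 in NB_Stim (difference −0.65, adjusted p = 0.482), and it differed by 0.47 between A_FACS and NB_FACS (adjusted p = 0.468). The part of endothelial RNA in the Slc2a5 values was not tested.

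Fcrls had a small fall and the widest spread of the 7 genes within NB_Control. Its log2 level was 16.02 and 15.79 in A_FACS, 16.02, 16.17 and 15.75 in NB_FACS, 15.07, 15.11 and 13.50 in NB_Control, and 15.84, 15.81 and 15.47 in NB_Stim. NB_Control lay below the other groups on every array, and its replicate 3, on slide 2, lay well below the other two. The mean fell from 15.98 ± 0.21 to 14.56 ± 0.92 (n = 3 each), a difference of −1.42 (SE 0.37, adjusted p = 0.0165). Without NB_Control replicate 3 the difference was −0.89 (adjusted p = 0.00647), and without NB_FACS replicate 2 it was −1.33 with an adjusted p of 0.0600. It was also not called when only these groups entered the fit (adjusted p = 0.0536) or in the Tukey test of the methods (adjusted p = 0.172). NB_Stim was 1.15 above NB_Control (SE 0.37, adjusted p = 0.159), and without NB_Control replicate 3 it was 0.62 above (adjusted p = 0.148). With replicate number as a block, the same difference of 1.15 had an adjusted p of 0.0475, and with slide as a block of 0.0275. Fcrls differed by −0.08 between A_FACS and NB_FACS (95% interval −1.01 to 0.86, adjusted p = 0.922). In the order NB_FACS, A_FACS, NB_Stim, NB_Control, no neighbours were called apart. A_FACS was called 1.35 above NB_Control (adjusted p = 0.0275), a call that ended without either of its arrays (adjusted p = 0.146 without replicate 1 and 0.0753 without replicate 2).

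Ltc4s fell in culture by less. The log2 levels of Ltc4s were 11.14 and 11.06 in A_FACS, 11.16, 11.22 and 11.31 in NB_FACS, 9.81, 9.60 and 10.31 in NB_Control, and 10.40, 10.31 and 10.35 in NB_Stim. Both cultures lay below both sorted groups, and NB_Control replicate 3 reached the lowest NB_Stim array. The difference of NB_Control from NB_FACS was −1.32 (SE 0.17, adjusted p = 0.000337), 2.50-fold, and that of NB_Stim from NB_FACS was −0.88 (SE 0.17, adjusted p = 0.00370). NB_Stim and NB_Control differed by 0.45 (95% interval 0.06 to 0.83, adjusted p = 0.251). Without NB_Control replicate 3 this became 0.65 with an adjusted p of 0.0391. Both adult arrays lay just below the newborn ones, and the difference of −0.13 was not called (95% interval −0.56 to 0.31, adjusted p = 0.698). A_FACS was 0.75 above NB_Stim (adjusted p = 0.0121), which was not called without A_FACS replicate 1 (0.71, adjusted p = 0.0770).

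Crybb1 depended on which probe was read. Averaged over its 3 kept probes, its log2 level was 7.24 and 7 in A_FACS, 8.06, 7.60 and 6.91 in NB_FACS, 6.08, 6.19 and 5.91 in NB_Control, and 6.34, 6.50 and 5.24 in NB_Stim. On this average the cultures lay below NB_FACS on every array, with differences of −1.46 for NB_Control (SE 0.35, adjusted p = 0.0108) and −1.5 for NB_Stim (SE 0.35, adjusted p = 0.00942). NB_Stim and NB_Control differed by −0.03 (95% interval −0.83 to 0.76, adjusted p = 0.983). A_FACS stood 1.06 above NB_Control (adjusted p = 0.0570) and 1.09 above NB_Stim (adjusted p = 0.0511), and with replicate number as a block these became 0.80 (adjusted p = 0.0305) and 0.83 (adjusted p = 0.0257). In the Tukey test of the methods the falls from NB_FACS were not called (adjusted p = 0.128 and 0.114).

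The bright probe of XM_006534752.1 gave a much larger fall. Its log2 level was 13.23 and 12.78 in A_FACS, 14.00, 13.84 and 13.67 in NB_FACS, 9.39, 9.45 and 9.68 in NB_Control, and 9.50, 9.45 and 9.82 in NB_Stim. Both cultures overlapped each other and lay far below the sorted cells. When each of the 44738 kept probes was fitted as a feature of its own, a choice made after seeing the data, 25.6% of probes were called for NB_Control against NB_FACS, 2.49% for NB_Stim against NB_Control and 19.3% for A_FACS against NB_FACS. In that fit the bright probe fell by 4.33 in NB_Control (SE 0.18, adjusted p = 6.03e-07), and NB_Stim differed from NB_Control by 0.09 (95% interval −0.32 to 0.49, adjusted p = 0.939). It was also lower in A_FACS than in NB_FACS, by −0.83 (SE 0.20, adjusted p = 0.0176), and in this it was opposite in sign to Tmem119, Olfml3, Golm1 and Slc2a5. The dim probes of XM_006534753.1 and XM_006534754.1 differed by 0.22 and −0.28 between NB_Control and NB_FACS, with adjusted p-values of 0.709 and 0.858.

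**Figure D3:**
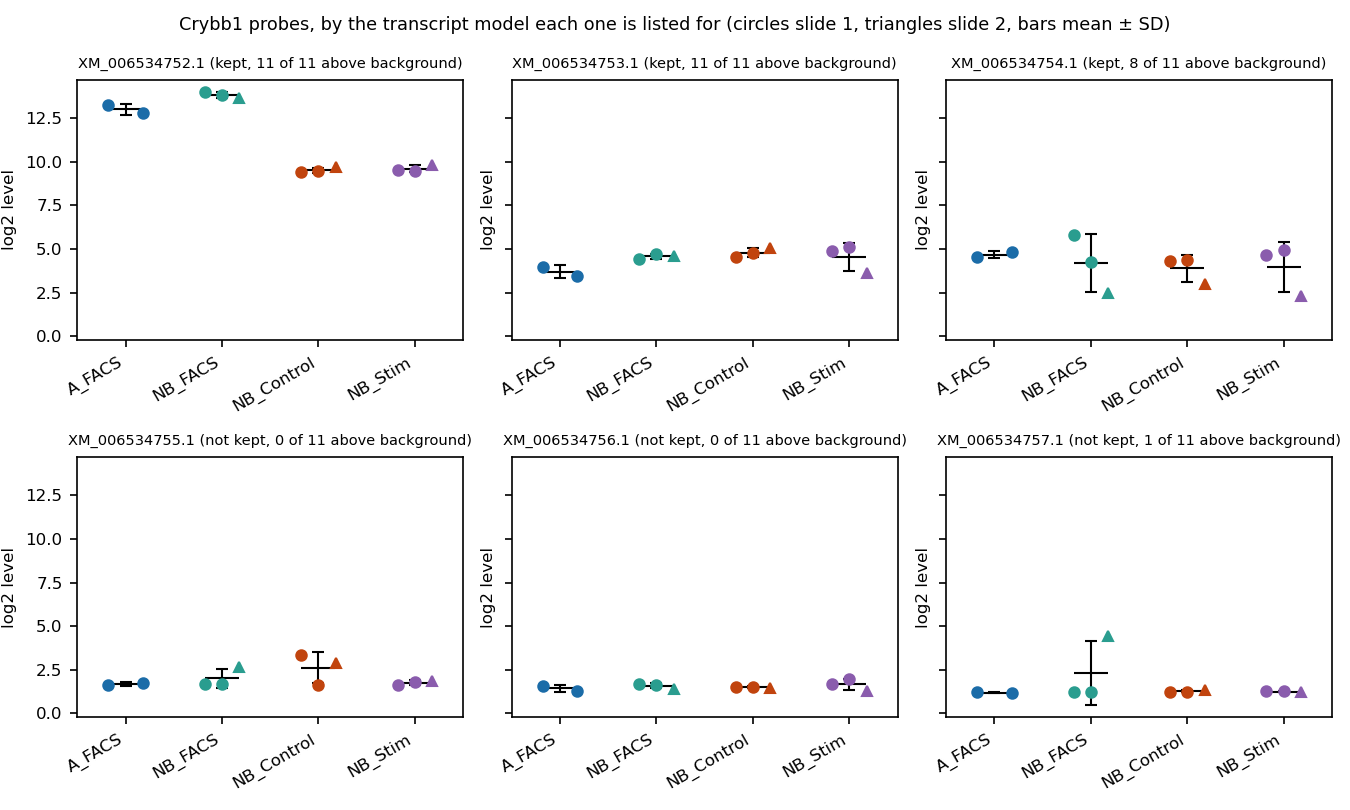
Log2 level (y axis, the same scale in all panels) of the 6 Crybb1 probes on every array, by group (x axis), 1 panel for each transcript model; circles are slide 1, triangles slide 2, bars the mean ± SD. The probe of XM_006534752.1 lies between 9.39 and 14.00 and separates sorted from cultured cells, and the other 5 reach at most 5.78.

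Crybb1 lies between Cryba4, another lens crystallin, and Tpst2 on the chromosome, in a RefSeq gene table used for order alone. Of these neighbours only Cryba4 is described, and it was named after its values were seen. Its mean log2 level was 8.69 in A_FACS, 10.29 in NB_FACS, 5.22 in NB_Control and 5.07 in NB_Stim. It fell by 5.07 in NB_Control against NB_FACS (SE 0.28, adjusted p = 2.30e-06) and differed by −0.15 between the cultures (adjusted p = 0.902). A_FACS was below NB_FACS by −1.60 (adjusted p = 0.00596). These differences had the same sign as those of the bright Crybb1 probe in each of the comparisons with NB_FACS. By contrast Selplg, next to Tmem119, differed by 0.22 in NB_Control against NB_FACS (adjusted p = 0.532), whereas Tmem119 fell. Whether neighbouring genes changed together was not tested.

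Differences were examined within the slides, since slide 2 held 1 array of each newborn group and no adult array. For NB_Control against NB_FACS, slide 1 alone gave −3.53 for Tmem119, −2.97 for Olfml3, −2.81 for Golm1, −7.99 for Slc2a5, −1.01 for Fcrls, −1.48 for Ltc4s and −1.69 for Crybb1. On slide 2, which allows no test, the same differences were −3.99, −3.52, −3.40, −6.47, −2.25, −1 and −1.01, in that order of genes. All 7 were thus lower on both slides. For NB_Stim against NB_Control, slide 1 gave 2.56 for Tmem119, 3.08 for Olfml3 and 2.24 for Golm1, and slide 2 gave 3.58, 3.57 and 2.27. Fcrls (0.74, adjusted p = 0.0235) and Ltc4s (0.65, adjusted p = 0.0311) were also called on slide 1 alone, and on slide 2 they stood at 1.97 and 0.04. Slc2a5 was at 0.12 and 0.16 on the slides, and Crybb1 changed sign, from 0.28 on slide 1 to −0.66 on slide 2. NB_Control replicate 3 was the lowest of its group for 5 of the 7 genes, and it was the lowest for 44.6% of all genes.

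**Figure D4:**
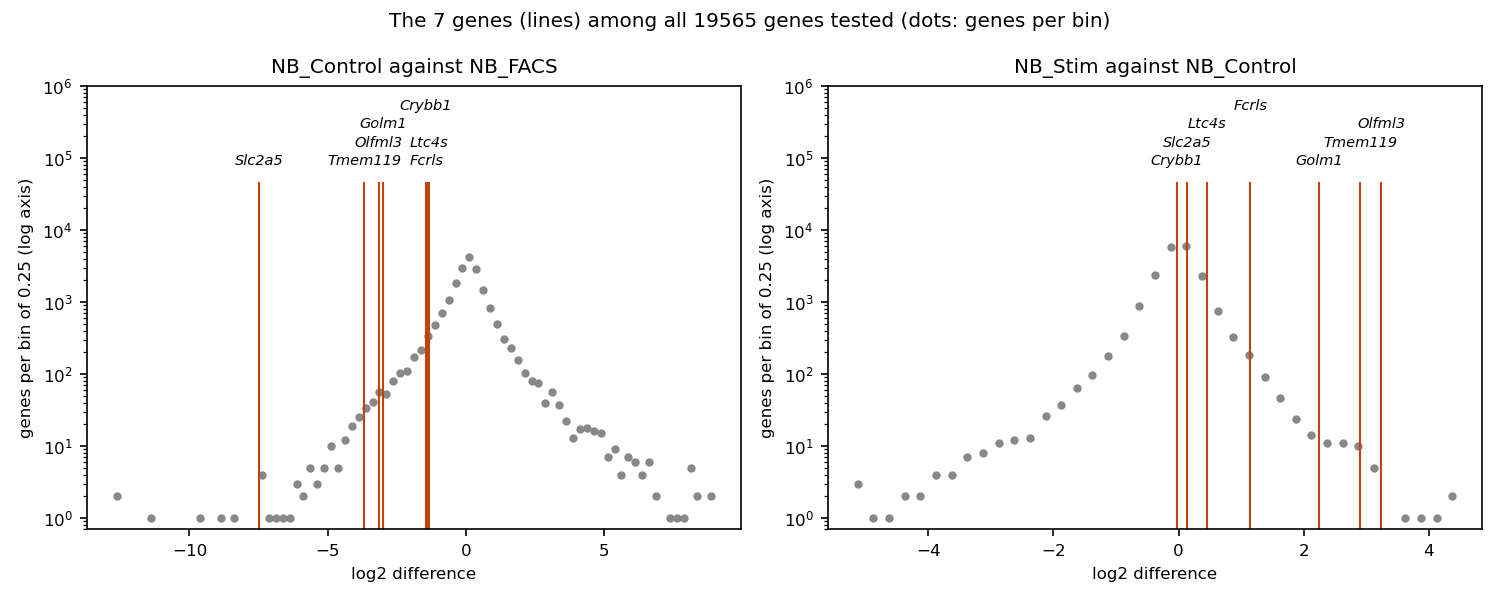
Number of genes (y axis, log scale) by log2 difference (x axis, bins of 0.25) for NB_Control against NB_FACS and for NB_Stim against NB_Control; dots are all genes tested and labelled lines the 7 genes. The lines lie from −7.48 to −1.32 in the first panel and from −0.03 to 3.24 in the second.

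Among the 7, profiles were compared by the mean absolute difference of log2 values over the 11 arrays after each gene was centred on its own mean, which is a description only. Olfml3 and Golm1 were closest (0.381), followed by Ltc4s and Crybb1 (0.402) and by Fcrls and Ltc4s (0.436). Tmem119 was 0.517 from Olfml3 and 0.545 from Golm1. Slc2a5 stood apart, with 2.60 to its nearest member, Tmem119, and 3.73 to Fcrls.

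The genes most alike by the same measure were sought among all 19565. For Tmem119 they were Cables1 (0.34), Spns2 (0.49) and Nav3 (0.49), for Olfml3 they were F11r (0.35), Ang (0.36) and Golm1 itself (0.38), and for Golm1 they were Rnase4 (0.28), Tgfbr1 (0.29) and Ang (0.33). F11r, a junctional adhesion molecule, had mean log2 levels of 15.29 in A_FACS, 13.48 in NB_FACS, 10.93 in NB_Control and 13.49 in NB_Stim. Tgfbr1, a receptor subunit for TGF-β, had 8.71, 8.06, 5.53 and 7.46 in the same order. For Slc2a5 the closest were Gimap6 (0.60), Cldn5 (0.74) and Cass4 (0.80), all with both cultures under a mean of 4.77 or at it. Fcrls was nearest to Tmem86a (0.16), Gm14057 (0.22) and Zfp609 (0.22), Ltc4s to Gna13 (0.12), Mical1 (0.14) and Slc7a8 (0.17), and Crybb1 to Sgms1 (0.16), Pcnt (0.17) and Cd180 (0.17). Small distances are easier to reach for genes whose levels vary little, as those of Fcrls and Ltc4s did.

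Other transcripts that mark microglia were read from a list of 30, of which 25 were tested. In NB_Control against NB_FACS, 13 were called lower and 0 higher, with P2ry12, a purinergic receptor of microglial processes, at −6.44 (adjusted p = 1.02e-06) and Siglech, a sialic acid-binding lectin, at −5.58 (adjusted p = 1.59e-07). In NB_Stim against NB_Control, 8 were called higher and 2 lower, 5 genes in all in the Tukey test or with cultured replicates 1 and 2 averaged. The largest called rises were those of Cx3cr1, the fractalkine receptor, at 4.03 (adjusted p = 0.00221), and of Tgfbr1 at 1.92 (adjusted p = 0.00120), and the falls were those of Nrros at −1.52 (adjusted p = 0.0102) and Entpd1 at −1.46 (adjusted p = 0.00650). Siglech differed by 0.40 (adjusted p = 0.336) and P2ry12 by 1.03 (adjusted p = 0.121), so that they, like Slc2a5 and Crybb1, were not called with cytokines. In A_FACS against NB_FACS, 14 were called higher and 0 lower, led by Csf1r, the M-CSF receptor, at 2.54 (adjusted p = 0.000293) and the interleukin receptor chain Il10ra at 2.24 (adjusted p = 0.000725). In NB_Stim against NB_FACS, 3 were called higher and 9 lower, with Itgb5 at 1.28 (adjusted p = 0.000301) and P2ry12 at −5.41 (adjusted p = 2.28e-06). The median of the list was −0.64, 0.50, 1.18 and −0.17 in these comparisons, beside 0.09, 0, −0.01 and 0.11 over all genes. Beside these counts, 15.8% of all genes were called higher and 13.9% lower in NB_Control against NB_FACS, and 1.4% and 2% in NB_Stim against NB_Control. The shares were 9.75% and 12.9% in A_FACS against NB_FACS, and 16% and 15.1% in NB_Stim against NB_FACS. In the Tukey test 9 list genes were called for NB_Control against NB_FACS, 10 for A_FACS against NB_FACS and 9 for NB_Stim against NB_FACS.

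Genes with roles near those of the members were counted in the same way. The shares of all genes to hold beside these counts are 15.8% called higher and 13.9% lower in NB_Control against NB_FACS, 1.4% and 2% in NB_Stim against NB_Control, and 9.75% and 12.9% in A_FACS against NB_FACS. The lists are short, and their counts moved with the alternatives. Of 15 tested genes of leukotriene synthesis and response, 6 were called higher and 0 lower in NB_Control against NB_FACS. Among them Abcc1, an exporter of cysteinyl leukotrienes, rose by 3.57 (adjusted p = 2.53e-06) and Dpep2, a dipeptidase that trims them, by 3.41 (adjusted p = 1.88e-05), whereas Ltc4s fell. The mean of Dpep2 in NB_FACS was 3.31, near the lowest levels well above background there (2.88 to 3.95), which limits the size of its rise. With cytokines Abcc1 and Dpep2 were called lower, by −1.08 (adjusted p = 0.0204) and −1.42 (adjusted p = 0.0230), among 3 called lower in this list. That count was 0 in the Tukey test, without NB_Stim replicate 1 or replicate 2 and with cultured replicates 1 and 2 averaged, 1 without NB_Control replicate 2 or with only these groups in the fit, and 6 on slide 1 alone. In adult cells Ggt5 and Cysltr1 were 2.31 and 1.57 higher than in newborn cells (adjusted p = 0.0105 and 0.0157), and Mgst3 differed by −1.45 (adjusted p = 0.00132). In A_FACS against NB_FACS 7 genes of the list were called, 4 in the Tukey test or without A_FACS replicate 1, and 11 on slide 1 alone.

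Of 14 tested genes of hexose transport and fructose use, 4 were called higher and 1 lower in NB_Control against NB_FACS, a count of 5 that was 2 in the Tukey test and 3 without NB_FACS replicate 2. The transporter Slc2a10 rose by 2.61 (adjusted p = 5.24e-05) and Hk3, a hexokinase, by 1.05 (adjusted p = 0.0160), while Slc2a6 differed by −1.72 (adjusted p = 0.00302). In A_FACS against NB_FACS, Slc2a10 and Slc2a1 were higher by 2.02 and 0.87 (adjusted p = 0.000914 and 0.0306), and Slc2a6 and Tkfc, an enzyme of fructose breakdown, differed by −1.63 and −1.49 (adjusted p = 0.0112 and 0.000391). In that comparison 8 genes were called, but 2 in the Tukey test or without A_FACS replicate 1, 3 without A_FACS replicate 2 or NB_FACS replicate 2, and 5 without NB_FACS replicate 3. With cytokines 0 genes of this list were called higher and 2 lower, Hk3 at −1.32 (adjusted p = 0.0309) and Sord, which makes fructose from sorbitol, at −0.87 (adjusted p = 0.0304). That count was 0 in the Tukey test, with only these groups in the fit, with cultured replicates 1 and 2 averaged and without replicate 2 of NB_FACS, NB_Control or NB_Stim, 1 without replicate 1 or 3 of either culture, and 4 with a slide or replicate block.

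Of 9 crystallin genes tested besides Crybb1, 2 were called higher and 3 lower in NB_Control against NB_FACS, with 3 called in the Tukey test. The small heat shock protein Cryab rose by 3.03 (adjusted p = 0.000187) and Crybg1 by 1.67 (adjusted p = 0.000822), and beside Cryba4 the fall of Crygn was −1.08 (adjusted p = 0.0315). Crym, a thyroid hormone-binding protein, was lower in adult than in newborn cells by −4.88 (adjusted p = 0.000640). Its mean in A_FACS was 1.46, under the lowest level well above background on either adult array (3.66 and 2.83). The size of that difference thus rests on a level at background. Of 7 other olfactomedin-domain genes, 1 was called lower in NB_Control against NB_FACS, Olfml2b at −1.37 (adjusted p = 0.0191), and 1 was called lower with cytokines, Adgrl2 at −0.83 (adjusted p = 0.00887). The first count was 0 in the Tukey test, with only these groups in the fit and without NB_FACS replicate 1 or replicate 2, and the second was 0 with no filter on dim probes or with cultured replicates 1 and 2 averaged. Of 16 other Golgi membrane and matrix genes, 5 were called higher in NB_Control against NB_FACS, led by Man2a1 at 1.47 (adjusted p = 0.00492) and Golph3l at 1.02 (adjusted p = 0.000359), with 2 called in the Tukey test and 3 without NB_Control replicate 2 or with cultured replicates 1 and 2 averaged. With cytokines 0 of these were called in limma or in the Tukey test of the methods, with 1 at an unadjusted p under 0.05. Of 4 other Fc receptor-like genes, 0 were called in limma or in the Tukey test in any of these comparisons, with 1 at an unadjusted p under 0.05 for NB_Control against NB_FACS, 2 for NB_Stim against NB_Control, 0 for NB_Stim against NB_FACS and 3 for A_FACS against NB_FACS. The highest count under an alternative was 2, for A_FACS against NB_FACS. It was reached with normexp background correction, with a slide or replicate block and on slide 1 alone, and some other alternatives gave 1.

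Markers of other cells moved with the comparisons too. Of 5 erythroid markers, 5 were above background on all sorted arrays, with a log2 summed signal of 17.04 to 17.44 in NB_FACS and 13.00 to 14.57 in A_FACS, against 7.25 to 7.44 in NB_Control and 7.10 to 7.85 in NB_Stim. Of 9 fibroblast markers, 8 were above background on all arrays of each culture, and their summed signal was 9.77 to 10.13 in NB_FACS, 13.82 to 14.18 in NB_Control and 13.02 to 14.11 in NB_Stim. Of 9 markers of border macrophages, the macrophages of the meninges and vessels, 9 were above background on all NB_FACS arrays and 7 on all NB_Control arrays, at 13.54 to 13.86 and 15.92 to 16.60, with 14.55 to 15.14 in NB_Stim and 8.82 to 9.95 in A_FACS. These markers did not move alike in NB_Control against NB_FACS. Ms4a7, Clec4n and Pf4 were called higher, by 6.66, 6.40 and 4.71. Lyve1, Cbr2 and Cd163 were called lower, at −4.81, −3.15 and −3.07. The means of Lyve1 and Cd163 in NB_Control, 3.02 and 3.68, were near the lowest levels well above background there (2.98 to 3.59). This limits the size of both falls. Mrc1, F13a1 and Folr2 differed by 0.17, 0.62 and 0.71 and were not called. Of 5 choroid plexus markers, 3 were above background on all NB_FACS arrays and 2 on all NB_Control arrays, with a summed signal of 14.02 to 16.93 in A_FACS, 13.97 to 15.74 in NB_FACS, 10.70 to 11.29 in NB_Control and 10 to 12.18 in NB_Stim. Of 4 oligodendrocyte lineage markers with a probe, 4 were above background on every array, at 10.95 to 11.26, 10.59 to 10.68, 12.01 to 12.25 and 13.50 to 13.90 in that order of groups, so that they were highest in NB_Stim. Astrocyte, neuron and neutrophil markers were at 10.56 to 10.79, 12.22 to 12.29 and 8.93 to 12.71 in NB_FACS, at 11.04 to 11.16, 11.26 to 11.5 and 10.11 to 10.42 in NB_Control, and at 10.56 to 11.05, 10.91 to 11.73 and 10.82 to 11.06 in NB_Stim. The part of these cells in the values of the 7 genes was not tested.

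Promoters were read for the 6 genes that the RefSeq table holds (GRCm38.p6, 250 bases before to 50 after the start); Tmem119 is not among them. A PU.1 motif, GAGGAAG on either strand, for the factor that macrophages need, was in 2 of the 6 and in 13.6% of all 32851 promoters. The window around it in Fcrls, chr3:87263632-87263698 on the minus strand, is shown with the motif in capitals.
Fcrls: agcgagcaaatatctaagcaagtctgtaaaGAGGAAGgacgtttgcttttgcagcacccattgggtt
The letters GTCTG, the core of a SMAD element through which TGF-β acts, were in 5 of the 6 and in 49.6% of all promoters on either strand. The promoter without them was that of Olfml3. The letters TATAAA of the TATA box were on either strand in 3 of the 6 and in 13.6% of all promoters. In Fcrls and Golm1 they lay far upstream, at −217 and, on the opposite strand, at −185. In Crybb1 they began 30 bases before the start, in the window chr5:112255760-112255819 on the plus strand.
Crybb1: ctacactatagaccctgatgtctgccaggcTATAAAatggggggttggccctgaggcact
An AP-1 element, TGANTCA, and a MEF2 motif were in 0 of the 6, and in 7.81% and 3.69% of all promoters. A match is a description of the letters only.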

How the data were processed

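RNA from sorted or cultured microglia (NucleoSpin RNA XS) was labelled with Cy3 by the authors (Low Input QuickAmp) and hybridised to Agilent mouse arrays, 1 array per sample. The deposited scanner files hold the processed intensity of each spot, background-subtracted by Feature Extraction (version 11 in the submitters' notes, 11.5.1.1 in the file headers). The series value table holds the same intensities and served as an alternative. Of 62976 spots, 1439 were controls. Outlier spots were left out, the intensity was taken to log2, spots of a probe were averaged and the 11 arrays were quantile normalised, as the methods name. Probes had to exceed the background flag throughout at least 1 group, and 44738 of 60037 did. Of these, 28037 carried a RefSeq accession that matched a mouse symbol, and averaging the probes of a gene gave 19565 genes.

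One model with 1 mean per group was fitted in limma 3.58.1 (R 4.3.3), with two-sided moderated tests and Benjamini-Hochberg adjustment over all genes within each of 6 comparisons. Genes named beside the members were the 3 most alike to each, and up to 2 called rises and 2 called falls in each list and comparison. P2ry12 and Siglech between the cultures, Selplg in NB_Control against NB_FACS, and the endothelial and border macrophage markers and Cryba4 in all comparisons given, were named after their values were seen. The members and lists were chosen with earlier results of these data known. The script was tested on simulated data. Marker lists are given as the log2 of the summed signal of their genes. Newborn arrays of different groups with the same replicate number were alike in their deviations from the group means (r of 0.112 to 0.489 in 9 pairs). On slide 1, newborn arrays with different numbers gave 0.185 to 0.364. Slide 2 held only replicate 3 of each newborn group, so slide and replicate number 3 cannot be told apart. Newborn pairs across slides gave −0.448 to −0.184. Same-numbered pairs with A_FACS gave −0.0692 to 0.168 in 6 pairs. The labels do not say whether cultured replicates came from separate flasks, and p-values then measure only the spread between these arrays. Their small number limits the precision. Alternatives changed the background correction, scaling, filter, probe summary, blocks for slide and replicate, samples in the fit and the test. The alternative test was the Tukey test of the methods. Its p-values were also adjusted over all genes by Benjamini-Hochberg, which the methods do not state.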

Additional observations from a re-analysis of the deposited data

How the results depend on the processing

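The falls of Tmem119, Olfml3, Golm1, Slc2a5 and Ltc4s in NB_Control against NB_FACS and the rises of Tmem119, Olfml3 and Golm1 with cytokines kept their direction and their call under every alternative tried with a test. Slc2a5 could not be tested where probes had to be above background on all arrays, since its probe was so on 8 of 11. Over the differences of the 7 genes, 984 values kept direction and call, 29 gained a call, 23 lost one and 13 changed sign, and 16 on slide 2 alone, which has no test, moved by more than 1 SD. The cause was not tested.

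Each change of sign concerned a difference that was not called. Crybb1 between the cultures (−0.03) was 0.09 with scaling to the 75th percentile and with its brightest probe, 0.04 with normexp background correction and 0.28 on slide 1 alone, and it ranged from −0.27 to 0.36 as arrays were left out. Fcrls in A_FACS against NB_Stim (0.20) was −0.11 with 75th percentile scaling and −0.06 with a slide block or a replicate block. Olfml3 in NB_Stim against NB_FACS (0.09) was −0.12 with 75th percentile scaling. With arrays left out, Fcrls in A_FACS against NB_FACS ranged from −0.19 to 0.04 and Slc2a5 between the cultures from −0.05 to 0.31.

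Counts over all genes are given for A_FACS against NB_Control, NB_FACS and NB_Stim, then NB_Control and NB_Stim against NB_FACS. The main counts were 7984, 4437, 7871, 5813 and 6086. With probes without a symbol kept they were 13315, 7026, 13238, 9141 and 9500, with the Tukey test of the methods 4881, 2015, 4655, 3548 and 3621, and with a log2 difference of at least 1 required 4804, 2409, 4539, 3160 and 3217. With each probe a feature of its own, chosen after seeing the data, they were 16362, 8616, 16365, 11443 and 11885. With only the groups compared in the fit, A_FACS against NB_FACS gave 2925. For NB_Stim against NB_Control the count of 666 became 1008 with normexp, 1474 with a slide block, 1192 with a replicate block, 1030 on slide 1, 183 with the Tukey test, 425 with the log2 limit, 1114 over single probes and 118 with cultured replicates 1 and 2 averaged. Leaving out an array gave 5188 to 8711, 2456 to 5128, 4892 to 8375, 4518 to 6455 and 4642 to 6586 in the order above, and 304 to 703 for NB_Stim against NB_Control. The lowest adult counts came without A_FACS replicate 1 and the lowest count between the cultures without NB_Stim replicate 1.

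Of the 7 members, 5 were called between the cultures on slide 1 alone, and 2 for NB_Stim against NB_FACS with the Tukey test or the log2 limit. With arrays left out the members called were 5 to 7, 3 to 4 and 4 to 6 for A_FACS against NB_Control, NB_FACS and NB_Stim, 6 to 7 for NB_Control against NB_FACS, 3 to 4 between the cultures and 4 to 5 for NB_Stim against NB_FACS. Beside the values given with the genes, a replicate block ended no call of a member. Depth limits Slc2a5 in both cultures, near the background, and 5 of the 6 Crybb1 probes, which were dim or under it. With 2 adult arrays on 1 slide, the adult spread is set by the other groups.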
